A study of Homo sapiens with 30 samples.

Results

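The 10 genes described here are the 5 subunits of the transcription factor NF-kappaB (NFKB1, NFKB2, REL, RELA and RELB), 3 feedback genes (NFKBIA and TNFAIP3, which encode inhibitors, and NFKBIZ, which encodes a nuclear member of the IkappaB family) and 2 target genes (BIRC3 and ICAM1). They were taken by symbol, or by Ensembl identifier in the knockout table, and no measured value entered that rule. The genes were nevertheless chosen with earlier results of these data known, so their counts do not come from a blind choice. All 10 were found among the 60612 genes of the knockout table and the 56303 genes of each of the overexpression and knockdown tables, and all passed the filter on low counts in every comparison, where they had between 401 and 27874 reads in a library. RNA-seq was performed on 5637 cells, a human bladder carcinoma line, in 30 libraries that form 10 groups of 3. In the knockout experiment, KO1 and KO2 carried an edited RBPMS, an RNA-binding protein gene, and were set against WT1 and WT2, labelled as wild type, by the number that the names share. No label states this pairing in words, and the study also speaks of control-sgRNA cells, so whether WT1 and WT2 carried a control guide is not settled. In the overexpression experiment, cells with an empty Vector were set beside cells overexpressing ANKRD10-1 or ANKRD10-2, which are splice isoforms of ANKRD10. In the knockdown experiment, siNC was the negative control siRNA, and siANKRD10-1 and siANKRD10-2 were siRNAs against either isoform.

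All groups shared the same line and medium, and nothing in the labels says that replicates came from separate cultures, so the p-values measure only the spread between these libraries, which may be technical. The labels give 5637 as the cells of all groups, whereas the study's own text places some ANKRD10 experiments in RBPMS-knockout 5637 cells, so the background of the overexpression and knockdown cells is not settled. The study describes single-clone expansion of its knockout cells, and a clone's own level of a gene cannot be told apart from an effect of the edit. Each table was normalised on its own, and a level in one table was therefore never tested against a level in another.

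NF-kappaB is a family of dimers built from the 5 subunits. In resting cells inhibitor proteins such as IkappaB-alpha, the product of NFKBIA, hold the dimers in the cytoplasm, and signals from TNF, interleukin-1 or Toll-like receptors activate a kinase complex that marks the inhibitor for destruction. The freed dimers bind kappaB sites in DNA and switch on genes of inflammation, adhesion and survival, among them their own inhibitors, which close the loop. In carcinoma cells the pathway is known for driving chemokines, adhesion molecules and resistance to cell death.

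RefSeq windows of 250 bases before to 50 bases after a start site (GRCh38.p14) were at hand for 9 of the 10 genes, in 14 windows, since some genes have several start sites. They were searched on both strands for the 10-base kappaB consensus, which can match the same bases on both strands. At least 1 match was held by 9 of the 14 windows (64.3%), belonging to 7 of the 9 genes, whereas 11.3% of all 35116 windows in the table held one. The looser motif GGGNNNNNCC, which contains the consensus, was in all 14 windows and in 58.7% of all windows. BIRC3 is shown because it was called in every comparison with a control, NFKBIA, TNFAIP3 and NFKBIZ because they are the feedback genes, and NFKB1, REL and NFKB2 because they are subunits whose own promoters hold a match. Each sequence runs 5′ to 3′ on the strand of the gene, and capitals mark the bases covered by a match.
BIRC3, chr11:102317234-102317483: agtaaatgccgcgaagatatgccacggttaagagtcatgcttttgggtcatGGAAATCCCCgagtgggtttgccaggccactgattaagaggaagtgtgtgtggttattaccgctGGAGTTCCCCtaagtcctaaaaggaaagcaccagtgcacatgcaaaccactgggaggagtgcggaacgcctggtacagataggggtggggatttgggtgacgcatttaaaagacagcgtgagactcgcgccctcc
NFKBIA, chr14:35404796-35404855: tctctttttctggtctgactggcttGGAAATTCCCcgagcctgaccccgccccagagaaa
TNFAIP3, chr6:137867173-137867232: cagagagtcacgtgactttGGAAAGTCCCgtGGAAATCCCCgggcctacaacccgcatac
NFKB1, chr4:102501285-102501344: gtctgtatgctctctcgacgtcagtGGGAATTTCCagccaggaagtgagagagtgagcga
REL, chr2:60881502-60881561: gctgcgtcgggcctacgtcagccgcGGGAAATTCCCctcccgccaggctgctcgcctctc
NFKB2, chr10:102394460-102394519: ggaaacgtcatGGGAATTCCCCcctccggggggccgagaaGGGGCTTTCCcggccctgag
NFKBIZ, chr3:101827742-101827801: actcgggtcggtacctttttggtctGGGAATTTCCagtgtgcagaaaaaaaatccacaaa
NFKBIA lies on the minus strand, and all others printed lie on the plus strand. BIRC3 and TNFAIP3 each held 2 separate matches, which began 199 and 135 bases upstream of the start site in BIRC3 and 67 and 55 bases upstream in TNFAIP3. In REL, and in the first run of capitals of NFKB2, matches on both strands overlap. RELA and ICAM1 had no match in their windows, which says only that these letters were not in them. A match is a description of the sequence, not a measured binding site, since no binding data were analysed here.

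**Figure D1:**
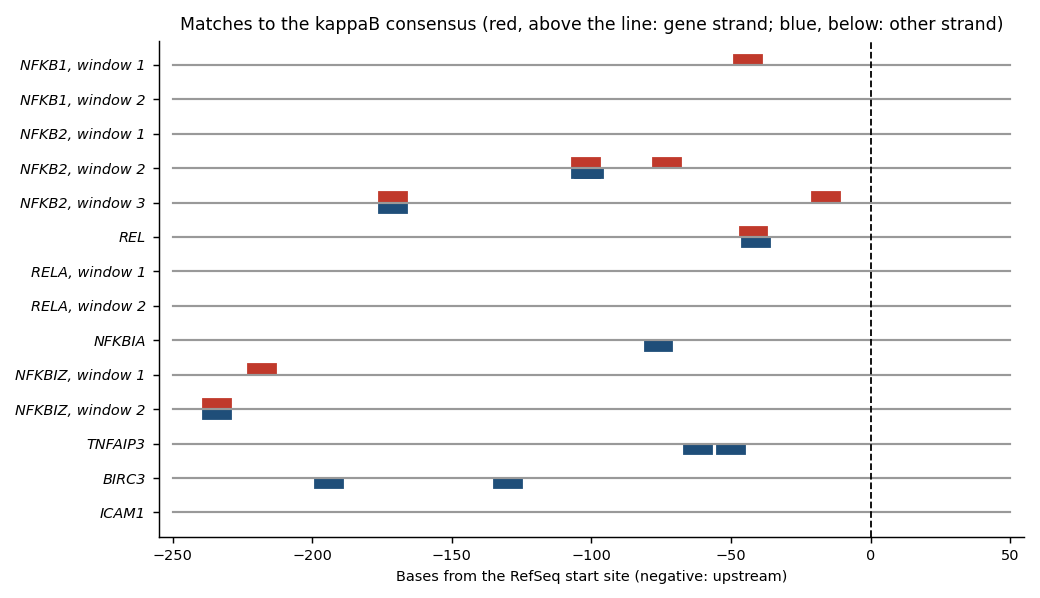
Matches to the kappaB consensus in the 14 promoter windows of 9 genes. The horizontal axis gives bases from the RefSeq start site (dashed line), each grey line is 1 window of 250 bases before to 50 after it, and red or blue boxes are matches on the gene's strand or the other strand. NFKB1, NFKB2, REL, NFKBIA, NFKBIZ, TNFAIP3 and BIRC3 held matches, all of them upstream of the start site.

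Library depth was 44593108 to 69723937 counts in the knockout table, 31736779 to 47493499 in the overexpression table and 28511029 to 32784584 in the knockdown table. RBPMS was at 38.97, 42.2 and 40.1 CPM (the count of the gene scaled to the size of its library) in WT1 and 15.1, 15.2 and 14.3 CPM in KO1, and at 44.2, 42.8 and 42.4 CPM in WT2 and 20.7, 18.95 and 21.3 CPM in KO2. RBPMS was thus lower in every library of both knockouts, with log2 fold changes of -1.44 ± 0.07 (SE) and -1.09 ± 0.06. In the overexpression table RBPMS lay between 3.57 and 6.29 CPM and in the knockdown table between 4.53 and 5.87 CPM, and was not called between groups in either (log2 differences of -0.19 to 0.27, edgeR, adjusted p = 0.306 to 0.894). These levels cannot be tested against those of the knockout table. ANKRD10 as a whole was at 190, 195 and 199 CPM in WT1 and 87, 90.2 and 81.8 CPM in KO1. It was at 197, 187 and 187 CPM in WT2 and 114, 108 and 116 CPM in KO2. Its log2 fold changes were thus -1.18 ± 0.05 in KO1 and -0.76 ± 0.04 in KO2. In the overexpression table ANKRD10 was at 149, 149 and 149 CPM in Vector, 236, 234 and 243 CPM in ANKRD10-1 and 205, 184 and 202 CPM in ANKRD10-2. It was at 57.01, 53.9 and 58.6 CPM in siNC, 50.2, 46.8 and 46.1 CPM in siANKRD10-1 and 46.5, 47.9 and 48.01 CPM in siANKRD10-2, and counts per gene do not tell the isoforms apart. Keratins and EPCAM, which define epithelial cells, were present in all groups (KRT8 at 1810 to 1890 CPM in siNC), whereas the uroplakins UPK1A and UPK3A were at 0 in siNC. Keratin levels differed widely, and KRT14 was at a mean of only 0.621 CPM in WT1 and 0.408 CPM in WT2. The 7 immune markers summed to 0.759 to 2.46 CPM in the knockout table, 21.2 to 28.8 CPM in the overexpression table and 10.3 to 15.7 CPM in the knockdown table. In siNC 4 of the 7 were at 0 in all libraries, PTPRC, CD3E and TYROBP among them, and most of the sum was CD68, at 12.2, 12.6 and 14.01 CPM. The 6 fibroblast markers summed to 28.7 to 59.7 CPM and the 4 endothelial markers to 1.36 to 3.4 CPM over all groups.

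Per kilobase of exon, NFKBIA and TNFAIP3 were the most abundant of the 10 genes in each control group. In siNC, NFKBIA stood at 71.7 ± 3.78 CPM per kilobase (SD, n = 3) and TNFAIP3 at 45.97 ± 4.22, followed by RELA at 17.8 ± 0.765, ICAM1 at 13.3 ± 0.385, NFKB2 at 11.4 ± 0.505, NFKBIZ at 11.2 ± 0.304 and NFKB1 at 8.06 ± 0.675 CPM per kilobase. RELB (4.29 ± 0.253), BIRC3 (4.08 ± 0.0859) and REL (3.91 ± 0.229 CPM per kilobase) were lowest, and the libraries of these neighbours overlapped, as did those of NFKB2 and NFKBIZ. The order was not the same in each table. In WT1 TNFAIP3 at 65.8 ± 5.905 and NFKBIA at 65.7 ± 2.15 CPM per kilobase overlapped, NFKB1 followed at 16.4 ± 0.508 and BIRC3 was lowest at 5.51 ± 0.185. In Vector NFKB1 was the lowest at 3.41 ± 0.148 CPM per kilobase, while BIRC3 stood at 17.7 ± 0.942. The tables list 60612 and 56303 genes and may have been counted with different annotations, so levels set across them are given side by side only. Exon lengths came from the overexpression table and were used for all 3. The order depends on these lengths, which were 11255 bases for REL and 3035 bases for RELB. Without scaling to length, REL stood at 43.96 CPM and RELB at 13.03 CPM in siNC.

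**Figure D2:**
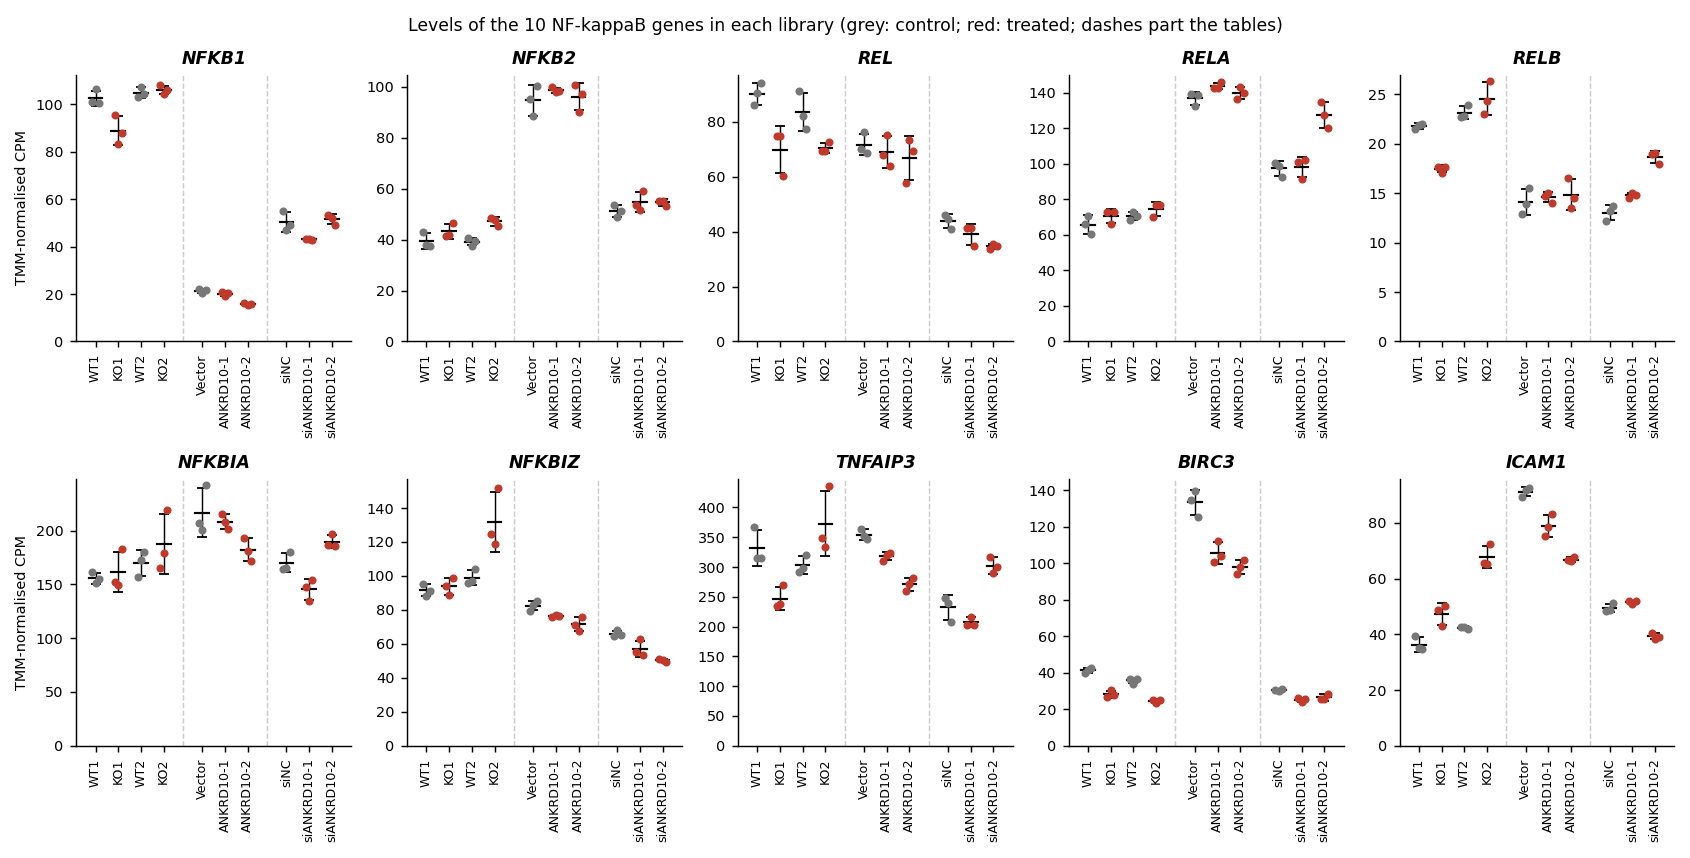
Levels of the 10 genes in all 30 libraries, as TMM-normalised CPM on axes that start at 0, with 1 point per library, a bar at the group mean and whiskers of 1 SD (n = 3). Grey points are control and red points treated libraries, and dashed lines part the knockout, overexpression and knockdown tables. BIRC3 sits below its control in all 6 treated groups, whereas ICAM1 sits above it in KO1 and KO2 and below it in ANKRD10-1, ANKRD10-2 and siANKRD10-2.

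Changes were small. Of 60 comparisons of a member with its own control (10 genes in 6 treated groups), 33 passed the test of edgeR at an adjusted p under 0.05, 9 of them higher and 24 lower, and the called changes ranged from 1.11-fold to 1.59-fold. The share of all genes called in each comparison is the background against which these counts stand. In KO1, 1 member rose and 5 fell, where 17.9% of 17865 genes tested were called higher and 18.2% lower (36.1% in either direction). In KO2, 4 rose and 2 fell, where 19.3% of 18267 genes were higher and 19.2% lower (38.5% in all). ANKRD10-1 overexpression left 0 members higher and 3 lower, against 3.5% and 2.81% of 20457 genes (6.31% in all). With ANKRD10-2, 0 were higher and 6 lower, against 10.7% and 9.25% of 20177 genes (19.9% in all). siANKRD10-1 gave 0 higher and 4 lower, against 5.08% and 5.52% of 18785 genes (10.6% in all), and siANKRD10-2 gave 4 higher and 4 lower, against 17.6% and 18.7% of 18924 genes (36.3% in all). The median log2 fold change of the members was -0.09 in KO1, 0.11 in KO2, -0.07 with ANKRD10-1, -0.22 with ANKRD10-2, -0.16 with siANKRD10-1 and 0.06 with siANKRD10-2, and that of all genes lay between -0.02 and 0. In the comparisons within the overexpression table, and in those within the knockdown table, 1 control group is shared, so their values are not independent. Leaving out 1 library at a time moved the count from 3 to 1 with ANKRD10-1 (without ANKRD10-1 replicate 1 or 2 or Vector replicate 2). With siANKRD10-1 it moved from 4 to 1 (without siANKRD10-1 replicate 1) or to 2 (without siANKRD10-1 replicate 3 or siNC replicate 1 or 2). Over the libraries left out, the count was 4 to 6 with ANKRD10-2, 6 to 8 with siANKRD10-2 and 5 to 6 in both KO1 and KO2.

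Marker levels also moved in these comparisons. The background of the marker counts is the share of all genes called in either direction. It was 36.3% with siANKRD10-2, 10.6% with siANKRD10-1, 19.9% with ANKRD10-2, 6.31% with ANKRD10-1, 36.1% in KO1 and 38.5% in KO2. Of 14 epithelial markers tested, 0 rose and 10 fell after siANKRD10-2, and their summed level was 4070 to 4210 CPM there, against 6670 to 7110 CPM in siNC. After siANKRD10-1 0 rose and 5 fell, at 5910 to 6250 CPM in sum. With ANKRD10-2, 8 rose and 1 fell of 14, at 4400 to 4920 CPM against 3860 to 3990 CPM in Vector, and with ANKRD10-1 4 rose and 0 fell, at 4170 to 4330 CPM. The summed immune markers were 27.3 to 28.8 CPM in Vector. They were lower with both isoforms, at 22 to 23.2 CPM with ANKRD10-1 and 21.2 to 23.1 CPM with ANKRD10-2. Of 3 immune markers tested, 0 rose and 1 fell with ANKRD10-1, and 0 rose and 2 fell with ANKRD10-2. After siANKRD10-2 the sum was 10.3 to 11.2 CPM against 12.7 to 14.6 CPM in siNC, which siANKRD10-1 overlapped. The immune sum was higher in KO1 (1.52 to 2.1 CPM against 0.902 to 1.33 CPM in WT1). In KO2 it was higher as well (1.85 to 2.46 CPM against 0.759 to 1.4 CPM in WT2). In KO2 the epithelial sum was 4140 to 4330 CPM against 4380 to 4630 CPM in WT2, while KO1 at 4420 to 4660 CPM overlapped WT1. Single markers moved in both directions under these sums, with 5 higher and 4 lower of 14 in KO1. In KO2, 4 were higher and 6 lower of 15. In KO1, for example, the mean of KRT13 went from 80.8 to 12.9 CPM and that of KRT5 from 698 to 963 CPM. The fibroblast sum was 32.6 to 38.1 CPM in KO1 against 52.6 to 56.3 CPM in WT1, and 49.8 to 52.3 CPM in KO2 against 55.1 to 56.3 CPM in WT2. Most of this sum was the single gene COL1A1, at a mean of 49.9 CPM in WT1, 34.5 CPM in KO1 and 50.7 CPM in WT2. COL1A2 and COL3A1 were at or near 0 in these groups. The fibroblast sum was higher with ANKRD10-1 (56.4 to 59 CPM against 49.2 to 52.2 CPM in Vector), while ANKRD10-2 overlapped Vector. It was also higher after siANKRD10-1 (32.5 to 34 CPM) and siANKRD10-2 (33 to 35.2 CPM) than in siNC (28.7 to 30.3 CPM). In bulk RNA, fewer cells of a kind and less RNA per cell cannot be told apart, and the part of these markers in the results was not tested.

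**Figure D3:**
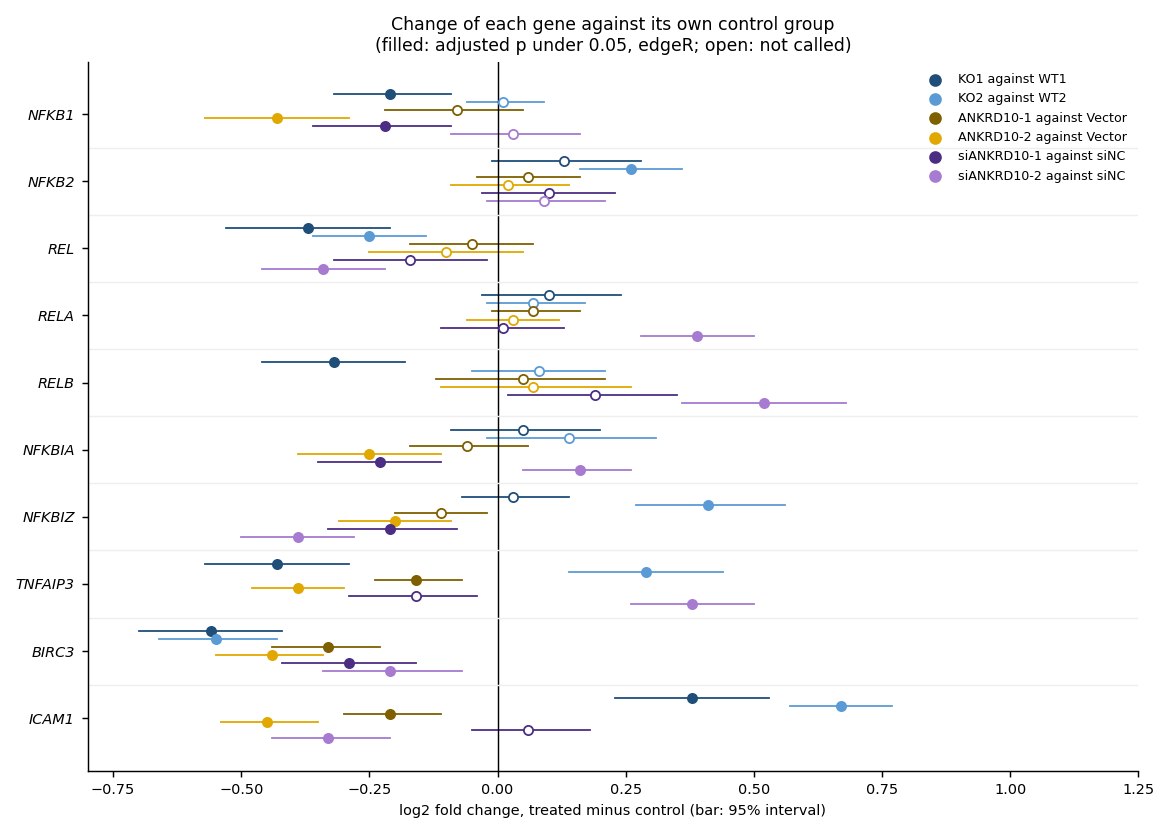
Log2 fold change of each gene (rows) in each of the 6 comparisons with a control (colours), with bars for the 95% interval. Filled points passed an adjusted p of 0.05 with edgeR and open points did not. All 6 points of BIRC3 are filled and lie between -0.56 and -0.21, whereas TNFAIP3 and ICAM1 have filled points on both sides of 0.

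Among the subunits, REL (chr2:60881521-60931610, GRCh38, plus strand), which encodes c-Rel, was lower in both knockouts. It was at 86.2, 90.5 and 94.1 CPM in WT1 and 74.8, 74.8 and 60.1 CPM in KO1. In the other pair it was at 91.1, 82.3 and 77.5 CPM in WT2 and 69.5, 69.3 and 72.7 CPM in KO2. The knockout libraries lay below all libraries of their own control in both pairs, by a log2 fold change of -0.37 ± 0.08 in KO1 (edgeR, adjusted p = 0.0042) and -0.25 ± 0.06 in KO2 (adjusted p = 0.00425). REL was also lower after siANKRD10-2, at 33.8, 35.7 and 34.8 CPM against 46.1, 44.6 and 41.1 CPM in siNC, and again the groups did not overlap (log2 fold change -0.34 ± 0.06, edgeR, adjusted p = 0.000117). Its log2 fold changes of -0.05 with ANKRD10-1, -0.1 with ANKRD10-2 and -0.17 with siANKRD10-1 were not called. In GENCODE v29, 5702 exon bases of REL are shared with the noncoding gene AC010733.2 on the same strand, and how reads on these bases were assigned is not given in the sources used here. That gene was counted at 0.251 to 3.93 CPM in the knockout table, with a log2 fold change of -1.53 ± 0.52 in KO1 and -0.37 ± 0.33 in KO2.

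NFKB1 (chr4:102501329-102617302, plus strand) encodes a precursor from which a DNA-binding subunit of the classical dimer is cut. It was at 22.1, 20.3 and 21.7 CPM in Vector, 20.95, 19.2 and 20.4 CPM with ANKRD10-1 and 16.1, 15.5 and 15.97 CPM with ANKRD10-2. The ANKRD10-2 libraries lay below all others, with a log2 fold change of -0.43 ± 0.07 against Vector (edgeR, adjusted p = 0.000916), whereas ANKRD10-1 and Vector overlapped (-0.08 ± 0.07, adjusted p = 0.554). In the knockdown table it was at 43.4, 43.2 and 42.8 CPM in siANKRD10-1, 53.3, 52.2 and 49.2 CPM in siANKRD10-2 and 55.1, 47.002 and 49.1 CPM in siNC. NFKB1 fell in siANKRD10-1 (log2 fold change -0.22 ± 0.07, edgeR, adjusted p = 0.0372) and was not called in siANKRD10-2 (0.03 ± 0.06). It fell in KO1 as well (95.6, 83.3 and 88.1 CPM against 101, 106 and 101 CPM, log2 fold change -0.21 ± 0.06, edgeR, adjusted p = 0.0169) and stood at 0.01 in KO2. The call in KO1 was lost without KO1 replicate 3 or WT1 replicate 2, and that in siANKRD10-1 without siANKRD10-1 replicate 1 or 3 or siNC replicate 1.

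RELA (chr11:65653596-65663094, minus strand) encodes the main activating subunit, and RELB (chr19:45001430-45038198, plus strand) its counterpart in the noncanonical dimer. Both rose after siANKRD10-2. RELA was at 101, 98.97 and 92.8 CPM in siNC, 101, 91.7 and 102 CPM in siANKRD10-1 and 135, 127 and 120.4 CPM in siANKRD10-2. RELB was at 12.2, 13.2 and 13.7 CPM in siNC, 14.5, 15.04 and 14.9 CPM in siANKRD10-1 and 18.9, 19.1 and 17.9 CPM in siANKRD10-2. For both genes the 3 siANKRD10-2 libraries lay above the 6 others, with log2 fold changes against siNC of 0.39 ± 0.06 for RELA (edgeR, adjusted p = 5.38e-06) and 0.52 ± 0.08 for RELB (adjusted p = 1.74e-05). RELA was not called in any other comparison with a control, where its log2 fold changes lay between 0.01 and 0.1. RELB fell in KO1, from 21.5, 21.9 and 21.99 CPM in WT1 to 17.7, 17.1 and 17.7 CPM (log2 fold change -0.32 ± 0.07, edgeR, adjusted p = 0.00519), while KO2 at 23.1, 24.4 and 26.3 CPM overlapped WT2 at 22.7, 22.8 and 23.9 CPM.

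NFKB2 (chr10:102394110-102402529, plus strand), the precursor of RELB's partner, was called in KO2 alone of the 6 comparisons. It was at 48.6, 47.7 and 45.2 CPM in KO2 and 40.5, 37.6 and 39.5 CPM in WT2, a log2 fold change of 0.26 ± 0.05 (edgeR, adjusted p = 0.00186). Its other log2 fold changes lay between 0.02 and 0.13.

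Among the feedback genes, NFKBIA (chr14:35401511-35404749, minus strand) encodes the inhibitor that carries dimers back out of the nucleus. It was at 164, 165 and 180.4 CPM in siNC, 148, 134 and 154 CPM in siANKRD10-1 and 187, 196 and 186 CPM in siANKRD10-2. The knockdowns thus lay on opposite sides of the control without overlap, at log2 fold changes of -0.23 ± 0.06 (edgeR, adjusted p = 0.0237) and 0.16 ± 0.05 (adjusted p = 0.0234), and each call was lost when some single libraries were left out, as given in the closing section. In the overexpression table it was at 207, 200.3 and 243 CPM in Vector and 193, 181 and 172 CPM with ANKRD10-2 (log2 fold change -0.25 ± 0.07, edgeR, adjusted p = 0.021). Vector replicate 3 was the highest of these, and without it, or without ANKRD10-2 replicate 2 or 3, the change was no longer called. With ANKRD10-1 the value was -0.06 ± 0.06, and in KO1 and KO2 it was 0.05 ± 0.07 and 0.14 ± 0.08, none of them called.

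NFKBIZ (chr3:101827991-101861022, plus strand) encodes a nuclear IkappaB protein that helps switch on secondary targets. It rose in KO2, at 125, 119 and 152 CPM against 95.6, 97.2 and 104 CPM in WT2 (log2 fold change 0.41 ± 0.07, edgeR, adjusted p = 0.000905). KO1 at 93.9, 88.8 and 98.9 CPM overlapped WT1 at 95.3, 88.1 and 91.2 CPM. In the knockdowns NFKBIZ was at 64.5, 67.99 and 65.4 CPM in siNC, 55.2, 62.6 and 53.7 CPM in siANKRD10-1 and 51.3, 50.6 and 49.5 CPM in siANKRD10-2. Both knockdowns lay below siNC, by -0.21 ± 0.07 (edgeR, adjusted p = 0.0486) and -0.39 ± 0.06 (adjusted p = 4.46e-06) on the log2 scale, though the first value was close to the threshold and lost its call without any of 5 of the 6 libraries. With ANKRD10-2 it was lower as well, at 71.3, 67.7 and 75.9 CPM against 79.4, 83.1 and 85.01 CPM in Vector (log2 fold change -0.2 ± 0.05, edgeR, adjusted p = 0.0191), a call lost without ANKRD10-2 replicate 2 or Vector replicate 2 or 3. With ANKRD10-1 its value of -0.11 ± 0.05 was not called.

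TNFAIP3 (chr6:137867188-137883312, plus strand) encodes a ubiquitin-editing enzyme that shuts off signalling below the TNF receptor. It moved in opposite directions in the knockouts. It was at 367, 315 and 314 CPM in WT1 and 234, 237 and 269.6 CPM in KO1. It was at 292, 298 and 320.3 CPM in WT2 and 349, 334 and 436 CPM in KO2. KO1 lay below its control (-0.43 ± 0.07, edgeR, adjusted p = 0.000851) and KO2 above its own (0.29 ± 0.08, adjusted p = 0.0104), and the second call was lost with DESeq2, with no filter on low counts and without WT2 replicate 1. In the overexpression table TNFAIP3 was at 364, 352 and 347 CPM in Vector, 311, 320.1 and 324 CPM with ANKRD10-1 and 259.7, 272 and 281 CPM with ANKRD10-2. These 3 groups did not overlap and stood in that order, with log2 fold changes of -0.16 ± 0.04 (edgeR, adjusted p = 0.037) and -0.39 ± 0.05 (adjusted p = 6.48e-05). The call with ANKRD10-1 was lost without ANKRD10-1 replicate 1 or 2 or Vector replicate 1 or 2. It was also lost with the replicate number as a block, and with all groups of the table in 1 fit (adjusted p = 0.0548, edgeR). In the knockdowns it was at 249, 240.01 and 208 CPM in siNC, 203, 217 and 203 CPM in siANKRD10-1 and 317, 290.4 and 299 CPM in siANKRD10-2. It rose after siANKRD10-2 (0.38 ± 0.06, edgeR, adjusted p = 1.59e-05) and its value of -0.16 ± 0.06 after siANKRD10-1 was not called.

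Of the target genes, BIRC3 (chr11:102317450-102339403, plus strand) encodes an inhibitor of apoptosis that sits at the TNF receptor and restrains cell death, and was the one member called in all 6 comparisons, each time lower. It was at 40.01, 41.6 and 42.8 CPM in WT1 and 26.5, 30.4 and 27.6 CPM in KO1. It was at 36.6, 33.96 and 36.8 CPM in WT2 and 25.1, 23.4 and 25.3 CPM in KO2. All 6 knockout libraries lay below all 6 control libraries, and BIRC3 was 1.47-fold lower in KO1 (log2 fold change -0.56 ± 0.07, edgeR, adjusted p = 0.000124) and 1.46-fold lower in KO2 (-0.55 ± 0.06, adjusted p = 1.69e-05). In the overexpression table it was at 135, 139.6 and 126 CPM in Vector, 101, 112 and 104 CPM with ANKRD10-1 and 94.02, 97.9 and 102 CPM with ANKRD10-2. Both isoforms lay below Vector and overlapped each other, with log2 fold changes of -0.33 ± 0.05 (edgeR, adjusted p = 0.000609) and -0.44 ± 0.05 (adjusted p = 5.94e-05). In the knockdown table it was at 30.8, 29.96 and 31.2 CPM in siNC, 26.1, 23.7 and 25.4 CPM in siANKRD10-1 and 25.6, 25.4 and 28.5 CPM in siANKRD10-2. Both knockdowns lay below siNC, by -0.29 ± 0.07 (edgeR, adjusted p = 0.00958) and -0.21 ± 0.07 (adjusted p = 0.0198) on the log2 scale, the latter lost without siANKRD10-2 replicate 1 or 2. BIRC3 was thus lower after both overexpression and knockdown of either isoform.

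ICAM1 (chr19:10270835-10286615, plus strand) encodes an adhesion molecule to which leukocytes bind. It was at 39.3, 35.1 and 34.5 CPM in WT1 and 48.9, 42.9 and 49.99 CPM in KO1. It was at 42.7, 42.7 and 41.7 CPM in WT2 and 65.5, 65.4 and 72.4 CPM in KO2. Both knockouts lay above their controls, 1.302-fold in KO1 (log2 fold change 0.38 ± 0.08, edgeR, adjusted p = 0.00253) and 1.59-fold in KO2 (0.67 ± 0.05, adjusted p = 8.34e-07), the largest change of any member. In the overexpression table ICAM1 was at 89.3, 91.7 and 92.5 CPM in Vector, 75.2, 78.6 and 83.1 CPM with ANKRD10-1 and 66.5, 66.3 and 67.6 CPM with ANKRD10-2. It fell with both isoforms, by log2 fold changes of -0.21 ± 0.05 (edgeR, adjusted p = 0.016) and -0.45 ± 0.05 (adjusted p = 1.89e-05), and the first call was lost without ANKRD10-1 replicate 1 or 2 or Vector replicate 2. In the knockdown table it was at 48.5, 48.7 and 51.1 CPM in siNC, 51.8, 50.99 and 51.8 CPM in siANKRD10-1 and 40.5, 38.5 and 39.1 CPM in siANKRD10-2. It fell after siANKRD10-2 alone (-0.33 ± 0.06, edgeR, adjusted p = 8.25e-05), and siANKRD10-1 overlapped siNC (0.06 ± 0.06). In GENCODE v29, 815 exon bases of ICAM1 are shared with the antisense gene AC011511.5, counted at 0.0742 to 0.557 CPM in the knockout table, and whether the counting used strand is not given in the sources used here.

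The control groups of the knockouts set a scale for these differences. Of the 10 genes, 0 were called between WT2 and WT1 by edgeR, where 0.578% of 18335 genes were higher and 0.654% lower (1.23% in all), while 4 had an unadjusted p under 0.05 and DESeq2 called 2. BIRC3 was -0.21 and ICAM1 0.23 on the log2 scale in WT2 against WT1 (edgeR, adjusted p = 0.113 for both), and in both genes the control libraries did not overlap. The control libraries of RELB (0.09, edgeR, adjusted p = 0.601) and NFKBIZ (0.11, adjusted p = 0.35) did not overlap either, with WT2 above WT1.

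The knockouts were compared with each other by testing the change in KO1 minus the change in KO2. Of the members, 0 were called with a higher change in KO1 and 5 with a lower one, where 11.2% and 12.1% of 19189 genes were (23.3% in all). TNFAIP3 differed most, by -0.72 ± 0.12 on the log2 scale (edgeR, adjusted p = 0.000428). RELB (-0.41 ± 0.09, adjusted p = 0.00437), NFKBIZ (-0.38 ± 0.11, adjusted p = 0.0154), ICAM1 (-0.29 ± 0.09, adjusted p = 0.034) and NFKB1 (-0.22 ± 0.07, adjusted p = 0.0303) followed in the edgeR test. The count was 3 with no filter on low counts, and also without KO1 replicate 2, KO2 replicate 3, WT2 replicate 1 or WT2 replicate 3, since ICAM1 and NFKB1 were then not called. NFKB1 alone lost its call without KO1 replicate 3, KO2 replicate 1 or WT1 replicate 2, and ICAM1 alone without WT1 replicate 1 or WT2 replicate 2. BIRC3 differed by -0.02, with a 95% interval of -0.19 to 0.16, and REL by -0.12 (-0.34 to 0.09), so a difference of that width between the knockouts was not resolved for them.

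Set directly against each other, the overexpressed isoforms differed in 4 members, 0 of them higher and 4 lower with ANKRD10-2, where 4.15% and 3.1% of 20052 genes were (7.26% in all). NFKB1 was lower by -0.34 ± 0.07 (edgeR, adjusted p = 0.00557), ICAM1 by -0.24 ± 0.05 (adjusted p = 0.00921), TNFAIP3 by -0.23 ± 0.05 (adjusted p = 0.00713) and NFKBIA by -0.19 ± 0.05 (adjusted p = 0.0341) on the log2 scale. The call of NFKBIA was lost when any of 5 libraries was left out, and the count fell to 2 without ANKRD10-1 replicate 3. For BIRC3 the difference was -0.11 (95% interval -0.22 to 0) and was not called.

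Between the knockdowns, 5 members were higher and 2 lower with siANKRD10-2, where 18.2% and 18.8% of 18832 genes were (37% in all). TNFAIP3 led with a difference of 0.55 ± 0.05 (edgeR, adjusted p = 4.34e-08), followed by NFKBIA at 0.39 ± 0.06 (adjusted p = 1.12e-05), RELA at 0.38 ± 0.06, RELB at 0.34 ± 0.08 and NFKB1 at 0.26 ± 0.06. ICAM1 at -0.38 ± 0.06 (edgeR, adjusted p = 1.92e-05) and NFKBIZ at -0.18 ± 0.06 (adjusted p = 0.0345) were lower. The call of NFKBIZ was lost without siANKRD10-1 replicate 2 or any 1 of the siANKRD10-2 libraries, and with the replicate number as a block. BIRC3, which fell with both siRNAs, differed by 0.09 between them (95% interval -0.05 to 0.23), and NFKB2 by 0 (-0.12 to 0.12).

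**Figure D4:**
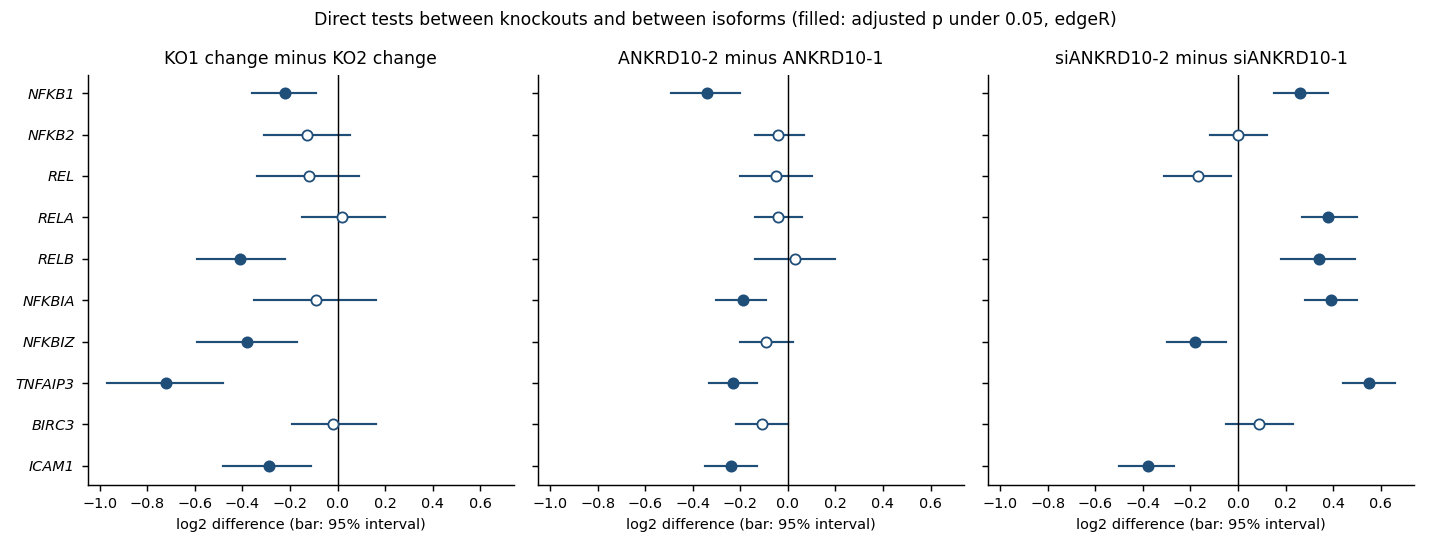
Log2 differences of the 10 genes between the changes of KO1 and KO2 (left), between ANKRD10-2 and ANKRD10-1 overexpression (middle) and between siANKRD10-2 and siANKRD10-1 (right), with bars for the 95% interval and filled points at an adjusted p under 0.05 with edgeR. TNFAIP3 is at -0.72, -0.23 and 0.55 and is filled in all 3 panels, and BIRC3 is open in all 3.

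The other genes of the pathway were taken from 6 lists of 167 genes in all, ordered from receptors to targets. In KO1, 53 of 154 tested were higher and 27 lower (51.9% called), and in KO2 74 of 155 were higher and 28 lower (65.8%). In ANKRD10-1, 6 of 158 were higher and 20 lower (16.5%), and in ANKRD10-2 23 of 156 were higher and 49 lower (46.2%). siANKRD10-1 had 13 higher and 33 lower of 152 (30.3%), and siANKRD10-2 had 30 higher and 44 lower of 152 (48.7%). These shares were above those of all genes given above, and no test was made over the lists. Single lists lay below the share of all genes in 4 cases, the adaptors in KO1 (9 called of 28) and siANKRD10-2 (9 of 27) and the other inhibitors in KO2 (9 of 28) and siANKRD10-2 (10 of 28). The genes named from these lists are taken from those with the largest called rise or fall in a list and comparison. Only genes with a mean of at least 1 CPM and no overlap between the groups were considered, so a gene below that level may have changed more. The median log2 fold change of all listed genes tested was 0.1 in KO1, 0.17 in KO2, -0.05 with ANKRD10-1, -0.08 with ANKRD10-2, -0.03 with siANKRD10-1 and -0.06 with siANKRD10-2.

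Among receptors and ligands, IL1B, the precursor of an interleukin that activates NF-kappaB, had the largest rise in both knockouts, from 29.03 to 122 CPM in KO1 (log2 fold change 2.07) and from 19.97 to 168 CPM in KO2 (3.07). The list had 6 genes higher and 4 lower of 26 in KO1, a share close to the 36.1% of all genes, with the largest fall in TLR5, the flagellin receptor (from 2.83 to 0.962 CPM, -1.57). It had 12 higher and 8 lower in KO2, where TNFSF10, the death ligand TRAIL, fell most (from 114 to 34.05 CPM, -1.75). TNFSF15, a TNF family ligand, fell with ANKRD10-2 (from 10.5 to 4.66 CPM, -1.17) and rose after siANKRD10-2 (from 11.3 to 16.7 CPM, 0.57). IL36G, an interleukin-1 family ligand, fell with ANKRD10-1 (from 3.95 to 2.27 CPM, -0.8), and IL1RN, the interleukin-1 receptor antagonist, fell after siANKRD10-2 (from 1.82 to 0.698 CPM, -1.36). TNFRSF12A, the TWEAK receptor, rose with ANKRD10-1 (0.33) and ANKRD10-2 (0.55) and fell after siANKRD10-1 (-0.49).

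Among the kinases, IKBKB, the catalytic subunit that marks IkappaB for destruction, fell in KO1 (from 36.000 to 27.4 CPM, log2 fold change -0.4) and in KO2 (from 36.6 to 23.5 CPM, -0.65). Its partner CHUK rose in KO2 (0.38), and MAP3K14, the kinase of the noncanonical branch, rose in KO1 (0.39) and with ANKRD10-2 (0.33). IKBKE, a related kinase of antiviral signalling, fell with ANKRD10-1 (-0.3), with ANKRD10-2 (-0.66) and after siANKRD10-1 (-0.41). After siANKRD10-1, 0 kinases were higher and 5 lower of 10.

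Of 28 adaptors tested, 7 were higher and 2 lower in KO1, a smaller share than the 36.1% of all genes, with the largest rise in IRAK1, a kinase of interleukin-1 receptors (0.55). With ANKRD10-2, 4 were higher and 9 lower, and RIPK1, a kinase at the TNF receptor, fell most (from 18.1 to 10.9 CPM, -0.73). TRAF1, an adaptor and NF-kappaB target, fell in KO2 (-0.97), and IRAK2 fell after siANKRD10-1 (-0.45). CARD14, a scaffold protein, rose after siANKRD10-2 (from 1.396 to 2.76 CPM, 0.98). Among the other inhibitors and ubiquitin editors, USP18, an enzyme that removes ISG15 from proteins and is induced by interferon, rose in KO1 (0.91) and fell with both isoforms, from 12.2 to 4.29 CPM with ANKRD10-1 (-1.51) and from 12.2 to 3.397 CPM with ANKRD10-2 (-1.84). DUSP1, a phosphatase of MAP kinases, rose in KO2 (from 5.88 to 14.8 CPM, 1.33). NFKBIB, another IkappaB gene, rose with ANKRD10-1 (0.41) and ANKRD10-2 (0.34). UBE2V1, part of a ubiquitin-conjugating enzyme, fell after siANKRD10-2 (from 303 to 188 CPM, -0.69).

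Secreted target genes were mostly higher in KO2 and mostly lower with ANKRD10-2. In KO2 23 were higher and 3 lower of 30, and in KO1 13 were higher and 7 lower of 29. CSF3, a growth factor of neutrophils, had the largest rise in KO1 (from 5.15 to 35.5 CPM, 2.79), and IL6 in KO2 (from 0.467 to 4.87 CPM, 3.39). CXCL6, a chemokine of neutrophils, fell most in both knockouts. It had 282, 354 and 451 reads in WT1 and 3, 0 and 0 reads in KO1, and 506, 460 and 492 reads in WT2 and 0, 0 and 7 reads in KO2. No fold is given for it, since the fitted value of so few reads depends on the prior count. With ANKRD10-2 5 were higher and 16 lower of 30, and CSF3 fell most (from 3.97 to 1.22 CPM, -1.69). After siANKRD10-2 4 were higher and 13 lower of 29, with IL23A, an interleukin subunit, leading the rises (from 19.3 to 42.3 CPM, 1.13) and IL6 the falls (from 1.65 to 0.705 CPM, -1.23). MMP1, a collagenase, fell with ANKRD10-1 (-0.38) and after siANKRD10-1 (-0.78), where IL32, a cytokine, led the rises (from 23.2 to 40.8 CPM, 0.81).

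Cellular target genes were 16 higher and 7 lower of 33 in KO1, and 19 higher and 10 lower in KO2. BCL2A1, a survival gene like BIRC3, had the largest rise in KO2 (from 0.329 to 4.88 CPM, log2 fold change 3.9), while BIRC3 fell there. In KO1 G0S2, an inhibitor of lipolysis, rose most (from 3.06 to 13.002 CPM, 2.08). Among genes with a mean of at least 1 CPM, NR4A2, a nuclear receptor, fell most (from 4.71 to 2.74 CPM, -0.78). VCAM1, an adhesion molecule gene below that level, had 28, 24 and 43 reads in WT1 and 0, 0 and 8 reads in KO1. TNFAIP2, which like TNFAIP3 is induced by TNF, fell with ANKRD10-2 (from 1322 to 698 CPM, -0.92). CCND1, the G1 cyclin, fell most after siANKRD10-1 (from 135 to 59.9 CPM, -1.18) and siANKRD10-2 (from 135 to 48.5 CPM, -1.48), and SDC4, a syndecan, rose after siANKRD10-2 (0.7).

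**Figure D5:**
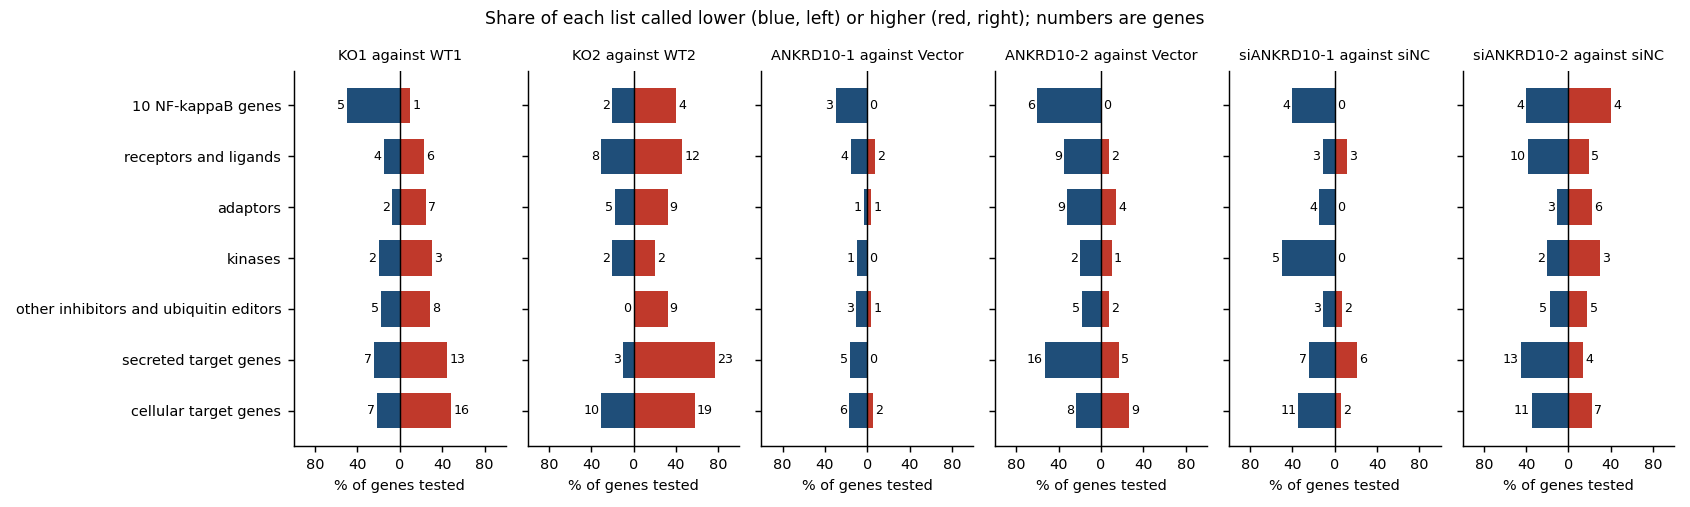
Share of the genes tested that were called lower (blue, to the left) or higher (red, to the right) by edgeR in the 10 NF-kappaB genes and in each of the 6 other lists (rows), in each of the 6 comparisons with a control (panels), with the number of genes at each bar. Secreted target genes reach 23 higher of 30 in KO2 and 16 lower of 30 with ANKRD10-2.

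The 10 genes did not move as a unit. Over all 30 libraries, after each library's log2 CPM was set against the mean of its control group, the pair most alike was NFKBIZ and ICAM1 (Pearson r = 0.82), followed by NFKB1 and TNFAIP3 (0.72), while NFKB2 and REL were the least alike (r = -0.7). These correlations describe 30 libraries of 10 groups that share controls and carry no test. By the same measure over 13205 other genes, ICAM1 was most like CKAP4 (r = 0.95), BIRC3 like LINC00649 (0.93), NFKBIZ like CXCL5 (0.92), RELB like PLEKHJ1 (0.92) and TNFAIP3 like SHROOM2 (0.9). NFKBIA had the weakest best match, FAS, a death receptor gene, at r = 0.76.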

How the data were processed

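Poly(A) RNA of 5637 cells was sequenced, and the authors deposited raw read counts per gene in 3 tables, without normalisation. The submitters' processing notes name Trimmomatic 0.36, featureCounts and Subread 1.5.1 with GRCh38, whereas the methods of the study name HISAT2 and StringTie. The annotation and the strand setting of counting are not given in the sources used here. Groups came from the sample labels, and all 30 libraries were used. Counts were analysed in R 4.3.3 with edgeR 4.0.16. Genes were kept by filterByExpr (minimum count 10, minimum total count 15) and counts were scaled by TMM. The quasi-likelihood test was fitted to the libraries of the groups compared (all 12 of the knockout table for the difference between knockouts). In each comparison, p-values were adjusted by Benjamini-Hochberg across all genes that passed its filter, with a threshold of 0.05. CPM uses TMM factors over the libraries of a table. The smallest p-value that exact permutation of 3 and 3 libraries allows is 0.1. Intervals (95%) are the estimate with its SE times the normal quantile. The steps were tested on simulated counts. The 10 genes and all lists were chosen with earlier results of these data known. Genes named from the other lists come from the largest rise and fall per list and comparison among called genes with a mean of at least 1 CPM and no overlap, and not all of these are printed. Of 167 such genes, SOD2 was not matched in the knockout table. Alternatives were RLE scaling, DESeq2 1.42.0, no filter, all groups in 1 fit, all 6 WT libraries as control, a replicate block and leaving out each library.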

Additional observations from a re-analysis of the deposited data

Results flagged for a closer look

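The knockouts differed from each other in 5 of the 10 genes by the test of the change in KO1 minus the change in KO2 over 12 libraries (edgeR). The difference was -0.72 for TNFAIP3, whose change was -0.43 in KO1 and 0.29 in KO2, so that the changes had opposite signs. For RELB it was -0.41, with changes of -0.32 and 0.08. For NFKBIZ it was -0.38, with changes of 0.03 and 0.41. For ICAM1 it was -0.29, with changes of 0.38 and 0.67, both upward. For NFKB1 it was -0.22, with changes of -0.21 and 0.01. RBPMS itself fell further against its control in KO1 than in KO2 by the same test (difference -0.36 on the log2 scale, edgeR, adjusted p = 0.00672). So did ANKRD10 (-0.42, edgeR, adjusted p = 0.00016), and the part of both genes in these differences was not tested.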

How the results depend on the processing

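Of the log2 values of the 10 genes in 10 comparisons, RLE scaling left all 100 on the same side of 0 and of the threshold, DESeq2 97, no filter 95, 1 fit with all groups 87 of 90, all 6 WT libraries as control 17 of 20, and leaving out 1 library 568 of 660 (57 lost their call and 32 changed sign). With all 6 WT libraries as control, KO1 gave -0.01 for NFKBIA and -0.02 for NFKBIZ. With no filter, NFKB1 in KO2 and NFKB2 in siANKRD10-2 against siANKRD10-1 were 0, the latter also with all groups in 1 fit. No filter gave 3 members called between knockouts, and 7 pathway genes between WT2 and WT1, where DESeq2 called 2 members and 26 pathway genes, against 0 and 15. The cause was not tested. Leaving out 1 library gave 1 to 3 members called with ANKRD10-1 and 12 to 30 pathway genes, 1 to 3 members with siANKRD10-1, 2 to 4 between ANKRD10-2 and ANKRD10-1, 3 to 5 between knockouts, and 0 to 1 members and 5 to 9 pathway genes between WT2 and WT1. Values that changed sign when 1 library was left out, none of them called, ranged as follows. In KO1 against WT1 these were NFKBIA (-0.05 to 0.11) and NFKBIZ (0 to 0.07). In KO2 against WT2 these were NFKB1 (0 to 0.03). In ANKRD10-1 against Vector these were REL (-0.12 to 0), RELB (-0.01 to 0.12) and NFKBIA (-0.11 to 0.03). In ANKRD10-2 against Vector these were NFKB2 (-0.03 to 0.07) and RELB (-0.01 to 0.15). In siANKRD10-1 against siNC these were RELA (-0.03 to 0.05). In siANKRD10-2 against siNC these were NFKB1 (-0.02 to 0.1). In ANKRD10-2 against ANKRD10-1 these were REL (-0.12 to 0.04), RELB (-0.06 to 0.09) and NFKB2 (-0.07 to 0.01). In siANKRD10-2 against siANKRD10-1 these were NFKB2 (-0.04 to 0.05). In the difference between knockouts these were BIRC3 (-0.07 to 0.03), RELA (-0.04 to 0.08) and NFKBIA (-0.19 to 0.03). In WT2 against WT1 these were NFKB2 (-0.04 to 0.06). NFKBIA lost its call in siANKRD10-1 without siANKRD10-1 replicate 1 or 2 or siNC replicate 2 or 3, and in siANKRD10-2 without siANKRD10-2 replicate 1 or 2 or siNC replicate 1 or 2. Whether replicate numbers pair the samples is not settled. The deviations of same-numbered libraries from their group means correlated at no more than 0.08. In KO2 against WT2 and ANKRD10-2 against Vector, each treated library was still most like the control library of its own number. This did not hold for all libraries in the other comparisons. Adding the replicate number as a block moved the genes called from 1991 to 2778 with siANKRD10-1, from 4017 to 4766 with ANKRD10-2 and from 6454 to 6082 in KO1. It moved them less in the other comparisons with a control. With the replicate as a block, 96 of 100 values kept their direction and their side of the threshold, while TNFAIP3 with ANKRD10-1 and NFKBIZ in siANKRD10-2 against siANKRD10-1 lost their call. The members had at least 401 reads in every library, and how far depth or the number of libraries limited the calls was not tested.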
